A study of Oryctolagus cuniculus with 12 samples.

Results

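The genes described here are 42 genes of DNA replication, taken by name: a gene was included when the name of its row in the deposited gene table equalled a name on the list. Of the 42 names, 41 had a row among the 20566 genes of the table, and all 41 passed the filter on low counts that left 14835 genes to be tested. POLD1 had no row under that name and was not analysed here. RNA was sequenced from conjunctiva of female Japanese white rabbits in 12 libraries, 3 in each of 4 groups. The paper, which used these trabeculectomy libraries as previously analyzed data, gives an age of 12 to 14 weeks for its animals. The groups TL3h, TL3d and TL14d were bleb conjunctiva taken after trabeculectomy of the right eye, at 3 hours, at 3 days and at 14 days, a glaucoma operation that lets aqueous humor drain under the conjunctiva. Mitomycin C, an agent that crosslinks DNA, was applied during surgery in all operated eyes. The paper's methods for trabeculectomy also give a betamethasone injection under the conjunctiva and an antibiotic ointment after wound closure. Whether the rabbits of these libraries received both is not stated there. The control group was conjunctiva of left eyes without surgery and without mitomycin C, so surgery, mitomycin C and any steroid given cannot be told apart in any comparison with control. The sources used here do not state which left eye belonged to which operated eye or when control tissue was collected, so groups were compared as unpaired. The p-values therefore judge group differences against the spread between these samples and treat the samples as independent.

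Before each round of DNA replication, the origin recognition complex (ORC) with CDC6 and CDT1 loads the MCM2-7 helicase onto DNA, a step known as licensing. At the G1/S transition, cyclin E and the E2F transcription factors promote entry into S phase, and CDC45 and the GINS proteins join MCM2-7 to form the active CMG helicase. Polymerases then copy the opened strands with the sliding clamp PCNA, its loader RFC and the single-strand binding complex RPA, while ribonucleotide reductase and thymidylate synthase supply deoxynucleotides. Many of these genes are E2F targets and are transcribed mainly in cycling cells. In conjunctiva, cycling cells are found chiefly in the epithelium, and after wounding also among stromal and recruited cells.

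The libraries held 27111348 to 38591425 estimated counts. Levels are given as CPM, counts relative to the library total after scaling by the TMM method, with factors between 0.77 and 0.78 for TL3h and between 1.03 and 1.13 for the 9 other libraries. Without TMM the median log2 change over all genes at 3 hours moved from 0.02 to -0.47, so changes at 3 hours are relative to a scaling that differed between groups. Conjunctival epithelium was evident in every library: the 6 of 9 listed epithelial markers in the table summed to 4080 to 8560 CPM in control, 4060 to 6660 CPM in TL3h, 6200 to 16300 CPM in TL3d and 8620 to 12600 CPM in TL14d. Among them at 3 hours PAX6 was lower (means 89.7 against 291 CPM, adjusted p = 0.00693 by edgeR) and EPCAM higher (310 against 155 CPM, adjusted p = 0.000884), and KRT5 was 3.62-fold higher at 3 days (adjusted p = 0.0291). The summed leukocyte markers (4 of 5 in the table) were 477 to 1080 CPM in TL3h and 738 to 911 CPM in TL3d, against 54.8 to 257 CPM in control and 65.7 to 242 CPM in TL14d. The 5 fibroblast markers summed to 80400 to 95800 CPM in TL3h, 9750 to 57700 CPM in control, 987 to 45200 CPM in TL3d and 7980 to 40100 CPM in TL14d, and 0 of the 5 passed the threshold at 3 hours (adjusted p of 0.276 to 0.958 by edgeR). The lymphocyte markers summed to between 4.19 and 13.5 CPM in all libraries, among which MS4A1 was 8.87-fold higher at 3 hours (means 2.67 against 0.298 CPM, adjusted p = 0.00453) and 5.62-fold at 3 days (adjusted p = 0.0349), and CD3D was lower at 3 hours (0.651 against 1.7 CPM, adjusted p = 0.0478). The 4 endothelial markers summed to 599 to 1200 CPM in TL3h and 286 to 529 CPM in TL3d, against 62.2 to 263 CPM in control and 86.6 to 272 CPM in TL14d. At 3 hours PECAM1 was 12.8-fold (means 716 against 55.8 CPM) and CDH5 5.51-fold higher (adjusted p = 0.0109 and 0.0401 by edgeR). KDR was on the lower side (18.6 against 32.8 CPM) and VWF on the higher side (77.8 against 42.5 CPM), and neither passed the threshold. Markers of skeletal muscle (2 of 4 in the table) reached 155 CPM in control replicate 2 and 253 CPM in TL3d replicate 3, and at most 6.42 CPM in the other libraries. Their part in the results was not tested. In tissue RNA, fewer cells of a type and less RNA per cell cannot be told apart.

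At 3 hours, most of the replication genes were lower than in control, and at 3 days none was lower while 16 were higher. At 3 hours, 23 of the 41 genes fell (22.2% of all genes tested fell) and 3 rose (23.2% of all genes tested rose), at an adjusted p of at most 0.05 by edgeR's quasi-likelihood test with Benjamini-Hochberg adjustment over all 14835 genes. Their median log2 fold change was -1.17, against 0.02 for all genes. Every TL3h library lay below every control library for 24 of the 41 genes (28.3% of all genes) and above for 4 (28.9%). At 3 days, 16 of 41 rose (10.6% of all genes rose) and 0 fell (7.0% of all genes fell), and the median was 0.77. Every TL3d library lay above every control library for 26 genes (23.8% of all genes) and below for 0 (21.7%). At 14 days, 0 of 41 were called (0% of all genes), the median was 0.29, and 3 were higher at an unadjusted p under 0.05 (6.96% of all genes) and 0 lower (3.41%). DESeq2 and limma also called 0 of the 41 at 14 days, where DESeq2 called 290 genes higher and 77 lower of the 14753 it tested and limma-trend called 0. All these comparisons share the 3 control libraries.

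Between the operated groups, 32 of the 41 genes were higher at 3 days than at 3 hours (18.4% of all genes were higher) and 1 was lower (19.0% of all genes were lower), with a median log2 fold change of 1.98. From 3 days to 14 days, 8 fell (1.59% of all genes fell) and 0 rose (0.647% of all genes rose), with a median of -0.48. Summed over the 41 genes, the level was 1160, 948 and 717 CPM in control, 572, 545 and 638 CPM in TL3h, 1880, 1520 and 1470 CPM in TL3d, and 1170, 990 and 1050 CPM in TL14d. The TL3h sums all lay below the control sums, the TL3d sums all above them, and the TL14d sums overlapped with control.

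**Figure D1:**
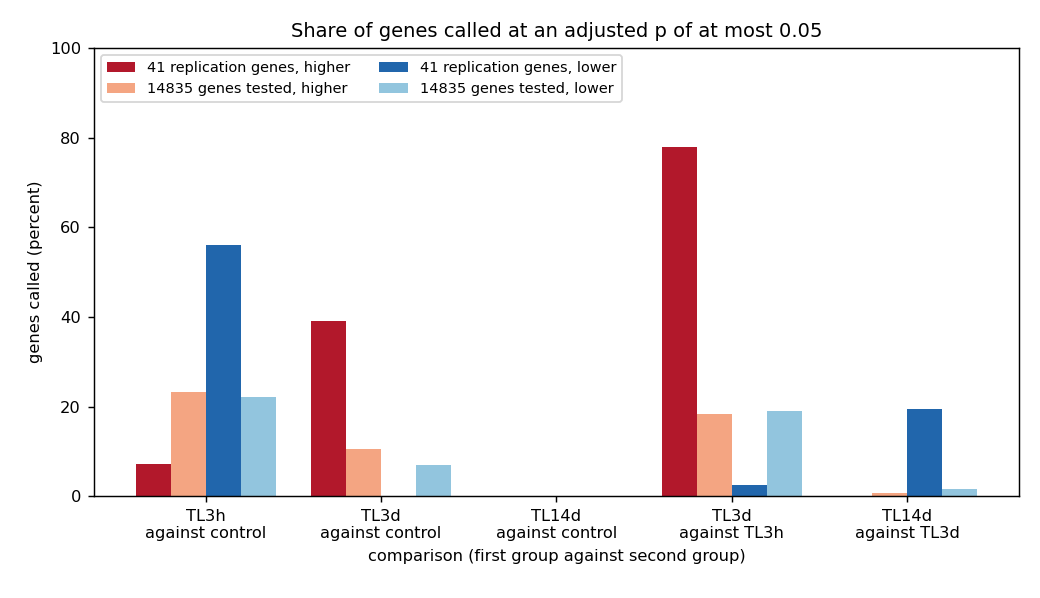
Share of genes called higher or lower at an adjusted p of at most 0.05 in each comparison, in percent, for the 41 replication genes and for all 14835 genes tested. The share of replication genes called lower at 3 hours was 56.1% and the share called higher at 3 days against 3 hours was 78.0%, while no gene was called at 14 days against control.

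The counts depended on single libraries and on scaling to different degrees. The 23 genes lower at 3 hours became 21 to 25 when any 1 library was left out and 30 without TMM, and 21 of the 23 kept the call in all alternatives run. Those that gained the call without TMM included ORC4, ORC5, RFC4, RPA2, FEN1 and E2F1. Without TMM the 3 genes higher at 3 hours became 1, which was CDC6, and of all genes called at 3 hours 25.0% were higher instead of 51.0%. The 3 also became 1 without TL3h replicate 3. The 16 genes higher at 3 days became 7 without control replicate 2, 8 without TL3d replicate 1 and 8 without TL3d replicate 2. In the same settings the number of all genes called higher went from 1569 to 265, 369 and 298. The 7 that kept the call in all alternatives run were CDC6, GINS4, PCNA, RRM1, RRM2, CCNE1 and CCNE2.

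Libraries of the same group also differed among themselves in these genes, most in control. Control replicate 1 held the highest control value for 33 of 41 genes and replicate 3 the lowest for 36. Among the TL3d libraries, replicate 1 held the highest value for 31 of 41 genes. The median SD of the log2 level between control libraries was 0.44 for the 41 genes and 0.23 for the 13274 genes averaging 1 CPM or more, whereas it was 0.24, 0.21 and 0.25 for the 41 genes in TL3h, TL3d and TL14d. In the same order of control libraries the summed epithelial markers were 8560, 6590 and 4080 CPM, lowest in replicate 3, while those of fibroblasts (9750, 27200 and 57700 CPM), leukocytes (54.8, 108 and 257 CPM), endothelium (62.2, 113 and 263 CPM) and goblet cells (59.5, 84.4 and 226 CPM, 2 of 4 markers in the table) were higher in replicate 3 than in replicate 1. Their part in the spread was not tested. The median fold change at 3 hours was -0.95 without control replicate 1 and -1.43 without control replicate 3, and at 3 days it was 1.09 and 0.56.

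**Figure D2:**
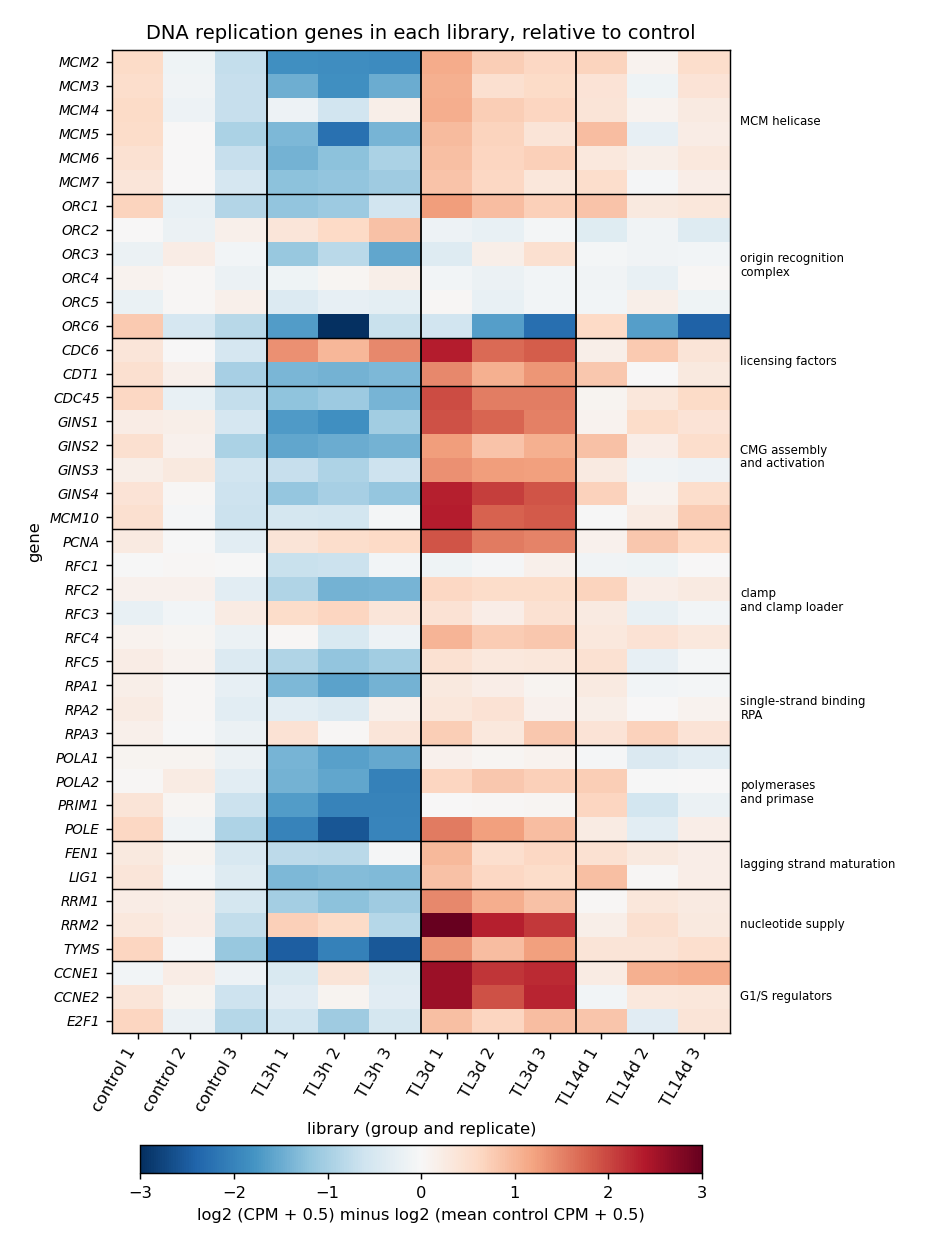
Level of each of the 41 genes in each library, as log2 (CPM + 0.5) minus the log2 of the control mean + 0.5, with genes in rows grouped by role and the 12 libraries in columns. Blue is below and red above the control mean, and values beyond 3 share the end colours. The TL3h columns are mostly blue, with CDC6, ORC2, RFC3 and PCNA red in all 3 libraries, RRM2 red in replicates 1 and 2 and a few other rows pale or mixed, and the TL3d columns are mostly red.

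Among the subunits of the MCM2-7 helicase, which unwinds DNA at the fork, 5 of 6 fell at 3 hours. MCM2 (OryCun2.0, chromosome 9, 6677927 to 6697593) was at 57.9, 35.8 and 23.4 CPM in control and at 10.6, 10.4 and 10.2 CPM in TL3h. It was at 85, 64.9 and 60.2 CPM in TL3d and at 62.7, 42.2 and 56.8 CPM in TL14d. The TL3h values were nearly equal to each other and below every other library, and MCM2 was 3.75-fold lower than control (log2 fold change -1.91 ± 0.30 SE, n = 3 and 3, adjusted p = 0.000701 by edgeR). MCM5 was at 41.7, 28.4 and 14.2 CPM in control, 10.8, 5.6 and 10.3 in TL3h, 54.4, 44.7 and 37 in TL3d, and 53.5, 23.6 and 32.7 in TL14d, a log2 fold change at 3 hours of -1.66 ± 0.43 (adjusted p = 0.01 by edgeR). MCM3, MCM6 and MCM7 fell by 1.64, 1.21 and 1.17 on the log2 scale.

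MCM4 was the subunit with the smallest difference at 3 hours. It was at 55.6, 33.2 and 22.9 CPM in control, 33.2, 24.7 and 42.1 in TL3h, 79.7, 62.8 and 58.4 in TL3d, and 48.7, 40.2 and 44.6 in TL14d. The control and TL3h values overlapped (log2 fold change -0.16 ± 0.30, adjusted p = 0.703 by edgeR). At 3 days the log2 fold changes against control of the 6 subunits were 0.62 to 0.85 and 0 of 6 passed the threshold (adjusted p of 0.058 to 0.257 by edgeR). All 6 were higher at 3 days than at 3 hours, by 1.01 (MCM4) to 2.75 (MCM2) on the log2 scale. MCM4 lost that call without TL3h replicate 1 or 2 or TL3d replicate 1 or 2 (adjusted p of 0.0536 to 0.0859).

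Because FPKM, a value deposited by the authors, is relative to library size and gene length, it allows levels of the subunits to be compared within a library. The ratio of the highest to the lowest subunit in FPKM was 1.61, 2.1 and 2.57 in control, 3.23, 4.07 and 4.27 in TL3h, 1.73, 1.87 and 1.79 in TL3d, and 2.05, 2.14 and 1.82 in TL14d. The TL3h ratios all lay above those of the other 9 libraries. MCM7 had the highest FPKM of the 6 in 10 libraries, and MCM4 had it in TL3h replicates 1 and 3, at 6.74 and 8.72 FPKM. MCM2 or MCM5 was lowest in all 3 TL3h libraries.

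**Figure D3:**
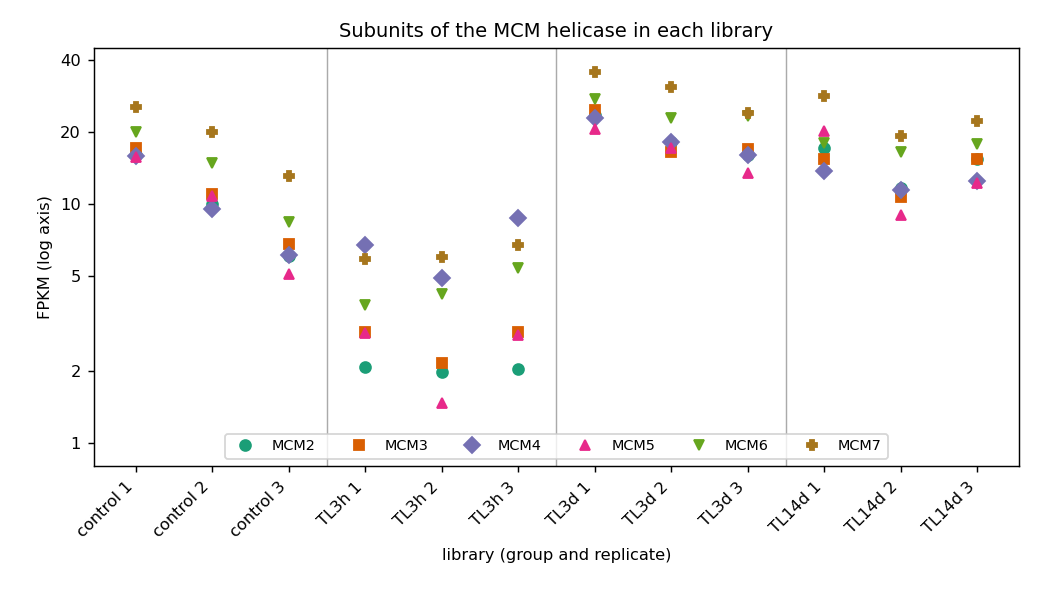
FPKM of the 6 subunits of the MCM2-7 helicase in each of the 12 libraries, on a log axis, with 1 symbol per subunit. The symbols lie within a ratio of 2.57 in control, TL3d and TL14d and spread to ratios of 3.23 to 4.27 in TL3h, where MCM4 sits among the highest.

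The ORC subunits, which mark origins and recruit the helicase loader, did not share a direction. ORC2 (chromosome 7, 141677165 to 141729091) was at 31.3, 27.1 and 34.4 CPM in control, 39.7, 47.3 and 57.6 in TL3h, 27.8, 26.2 and 29.7 in TL3d, and 24.1, 28.9 and 23.4 in TL14d. Its TL3h values were above all others, and it rose at 3 hours (0.64 ± 0.16, adjusted p = 0.0083 by edgeR), then was lower at 3 days than at 3 hours (-0.79 ± 0.16, adjusted p = 0.00366). The rise at 3 hours did not pass the threshold without TL3h replicate 3 (0.45, adjusted p = 0.0504) or without TMM (0.15, adjusted p = 0.467), within a range of adjusted p over the alternatives of 0.00232 to 0.468. The difference between 3 days and 3 hours was -0.31 without TMM (adjusted p = 0.13).

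ORC3 was at 9.9, 13.2 and 10.6 CPM in control, 4.8, 6.22 and 3.44 in TL3h, 8.39, 12.8 and 15.8 in TL3d, and 10.8, 10.3 and 10.6 in TL14d. It fell at 3 hours with no overlap (-1.22 ± 0.27, adjusted p = 0.00481 by edgeR), but it overlaps RARS2 on the other strand and 100% of its counts are fractions, so its level is uncertain. ORC4 was at 17.6, 16.7 and 14.2 CPM in control, 14.7, 16.9 and 18.4 in TL3h, 15.2, 14.4 and 15.3 in TL3d, and 14.9, 13.7 and 16.6 in TL14d, and all 4 groups overlapped (0.04 ± 0.14 at 3 hours). Without TMM ORC4 was lower at 3 hours (-0.46, adjusted p = 0.0319). ORC5 was at 9.45, 11.3 and 12.2 CPM in control, 8.19, 9.13 and 8.89 in TL3h, 11.3, 9.39 and 10.3 in TL3d, and 10.4, 12.5 and 9.99 in TL14d. Its TL3h values all lay below control without passing the threshold (-0.33 ± 0.16, adjusted p = 0.124 by edgeR), which it passed without TMM (-0.83, adjusted p = 0.00194) and also by DESeq2 and with limma on log2 FPKM.

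ORC6 varied more within groups than between them. It was at 38.2, 15.4 and 12 CPM in control, 6.5, 1.74 and 13.6 in TL3h, 14.6, 6.62 and 4.15 in TL3d, and 33.4, 6.68 and 3.68 in TL14d. The log2 fold changes against control of -1.59 ± 0.94, -1.37 ± 0.93 and -0.59 ± 0.91 at the times TL3h, TL3d and TL14d were each under 2 standard errors. ORC1, the subunit most tied to the cell cycle, ranged from 2.18 to 7.31 CPM in control, 1.65 to 2.78 in TL3h and 7.54 to 11.1 in TL3d, and it rose from 3 hours to 3 days (2.14 ± 0.43, adjusted p = 0.00354 by edgeR).

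The licensing factors CDC6 and CDT1, both needed for helicase loading, had opposite signs at 3 hours. CDC6 (chromosome 19, 41451123 to 41467769) was at 4.25, 3.18 and 2.08 CPM in control, 8.96, 6.85 and 9.4 in TL3h, 18.2, 11.4 and 12.5 in TL3d, and 3.63, 5.87 and 4.26 in TL14d. The TL3h and TL3d values were above every control value, at 2.65-fold (1.41 ± 0.31, adjusted p = 0.00461 by edgeR) and 4.42-fold (2.15 ± 0.32, adjusted p = 0.0093). CDC6 was the only gene of the 41 called higher than control at both times, and it kept both calls in all alternatives run. CDT1 was at 4.77, 3.68 and 1.38 CPM in control, 0.961, 0.913 and 0.988 in TL3h, 9.79, 7.45 and 9.02 in TL3d, and 6.12, 3.34 and 4.13 in TL14d. CDT1 fell at 3 hours (-1.78 ± 0.42, adjusted p = 0.00638 by edgeR) and was 1.42 ± 0.40 above control at 3 days (adjusted p = 0.0396). The call at 3 days was lost without any 1 of the control replicates 1 and 2, the TL3h libraries, the TL3d libraries or TL14d replicate 3 (highest adjusted p = 0.113). It was also lost without TMM and in a fit of the 6 libraries compared. CDT1 overlaps APRT on the other strand and 83.3% of its counts are fractions, so its level is uncertain.

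CDC45 and the GINS subunits, which turn the loaded helicase into the active CMG complex, were scarce at 3 hours, with mean FPKM of 0.115 to 0.673. All 5 of them fell at 3 hours and 4 of the 5 rose above control at 3 days. GINS1 was at 2.14, 2.03 and 1.08 CPM in control, 0.192, 0.124 and 0.585 in TL3h, 7.92, 7.02 and 5.95 in TL3d, and 1.92, 2.77 and 2.47 in TL14d. The value in TL3h replicate 2 equals the 3 counts taken as the floor of that library. GINS1 had the lowest fold change of the 41 genes at 3 hours (-2.51 ± 0.51, adjusted p = 0.00298 by edgeR; -3.48 without TL3h replicate 3) and the highest between 3 days and 3 hours (4.50 ± 0.54, adjusted p = 0.000217, and 5.46 without TL3h replicate 3).

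GINS2 was at 4.18, 3.18 and 1.25 CPM in control, 0.653, 0.705 and 0.768 in TL3h, 7.57, 5.6 and 6.55 in TL3d, and 5.68, 3.37 and 4.39 in TL14d. The groups control, TL3h and TL3d did not overlap. It fell at 3 hours (-2.01 ± 0.41, adjusted p = 0.00305 by edgeR), while its difference from control at 3 days did not pass (1.19 ± 0.39, adjusted p = 0.0596). GINS4 was at 2.49, 1.8 and 0.953 CPM in control, 0.5, 0.622 and 0.512 in TL3h, 10.8, 8.9 and 7.8 in TL3d, and 3.13, 1.93 and 2.73 in TL14d. GINS4 fell at 3 hours (-1.68 ± 0.36), was 5.23-fold above control at 3 days (adjusted p = 0.0093 by edgeR) and fell by 1.82 ± 0.35 from 3 days to 14 days. CDC45 and GINS3 followed with log2 fold changes of -1.69 and -1.33 at 3 hours and 1.87 and 1.64 at 3 days. GINS3 lost its call at 3 hours without control replicate 1 or 2 or TL3h replicate 2, and CDC45, GINS1 and GINS3 lost theirs at 3 days without control replicate 2 or TL3d replicate 1 or 2. GINS1 also lost it without control replicate 1 or 3, and GINS3 without control replicate 1.

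MCM10, which helps CMG to start unwinding, showed another course at 3 hours. It was at 3.84, 2.53 and 1.48 CPM in control, 1.65, 1.62 and 2.49 in TL3h, 15.5, 10.1 and 10.6 in TL3d, and 2.59, 3.21 and 4.75 in TL14d. Control and TL3h overlapped (-0.45 ± 0.38, adjusted p = 0.375 by edgeR), whereas all TL3d values were above all others (2.20 ± 0.39 against control, adjusted p = 0.0115). Without control replicate 2 the adjusted p at 3 days was 0.051, the highest of the alternatives, which reached down to 1.63e-06.

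**Figure D4:**
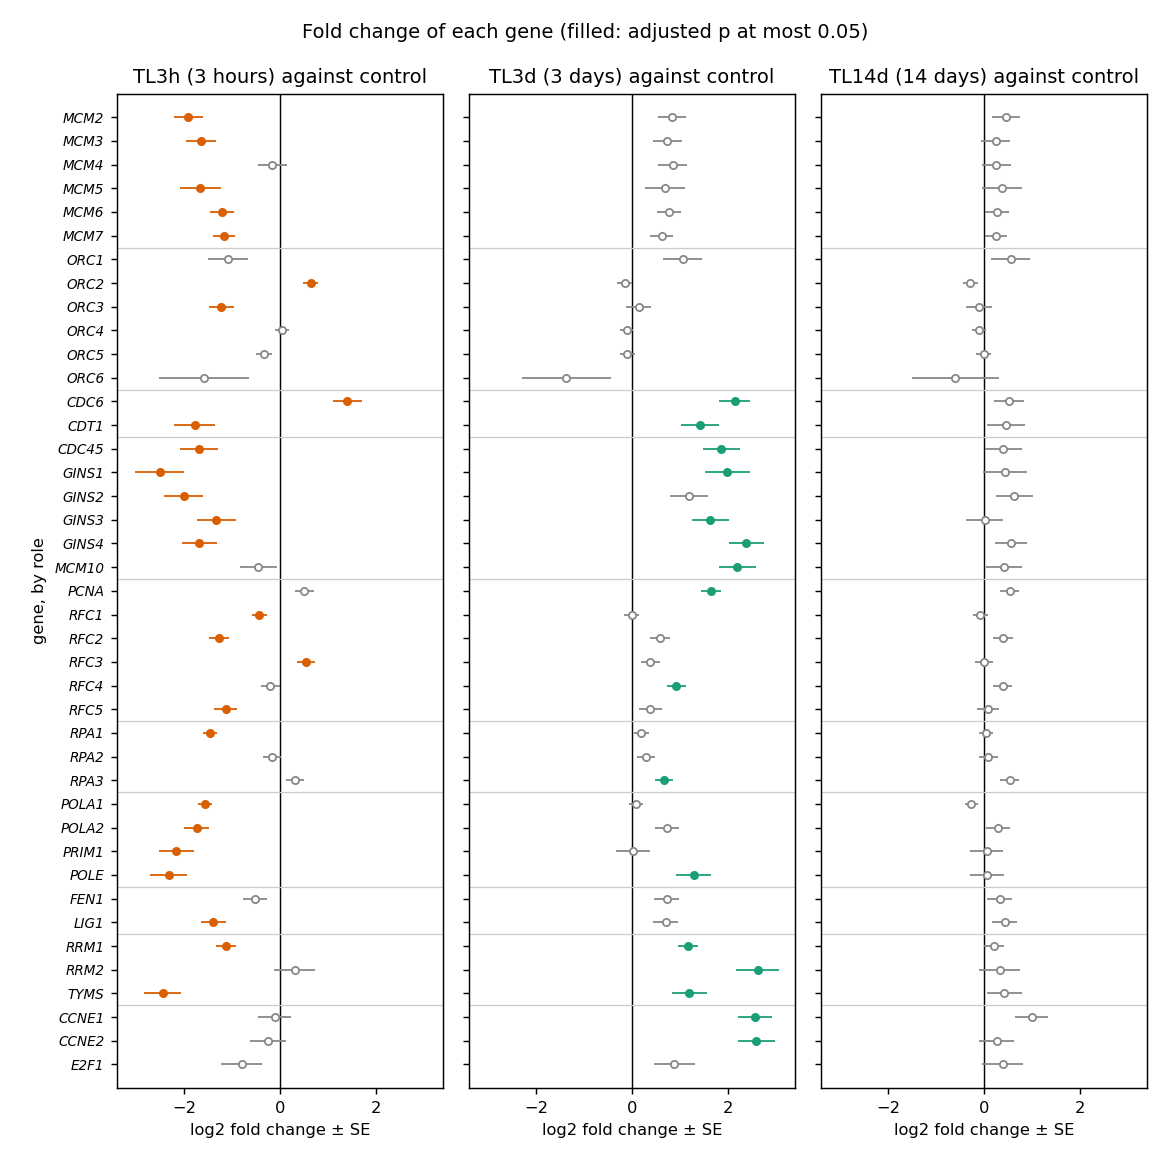
Log2 fold change against control with its standard error for each of the 41 genes in TL3h, TL3d and TL14d, with filled points for an adjusted p of at most 0.05. At 3 hours 23 filled points lie left of 0 and 3 right of it, at 3 days 16 lie right of it, and at 14 days there are none.

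The sliding clamp PCNA, which holds polymerases on DNA, had the highest FPKM of the 41 genes in every group, with means of 43.6 in control, 44.7 in TL3h, 138 in TL3d and 63.8 in TL14d. In CPM it was at 66.5, 54.6 and 44 in control, 72.6, 79.5 and 83.4 in TL3h, 204, 162 and 156 in TL3d, and 60.3, 96.5 and 83.5 in TL14d. The TL3h values were above the control values without passing the threshold (0.51 ± 0.20, adjusted p = 0.0619 by edgeR), and PCNA rose 3.16-fold at 3 days (1.66 ± 0.21, adjusted p = 0.00695).

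The 5 subunits of RFC, which loads the clamp, were split at 3 hours, with RFC1, RFC2 and RFC5 lower and RFC3 higher. RFC2 was at 17, 16.9 and 12.3 CPM in control, 8.03, 5.48 and 5.52 in TL3h, 24, 22.8 and 22.7 in TL3d, and 24.7, 17.9 and 18.8 in TL14d (-1.28 ± 0.21 at 3 hours, adjusted p = 0.00087 by edgeR). RFC5 was at 10.8, 9.88 and 6.82 CPM in control, 4.65, 3.78 and 4.17 in TL3h, 12.7, 11.6 and 11.7 in TL3d, and 12.7, 7.72 and 8.76 in TL14d (-1.13 ± 0.24 at 3 hours). For both, every TL3h value was below every other library. RFC3 was at 9.75, 10.7 and 13.7 CPM in control, 17, 18.2 and 14.8 in TL3h, 15.7, 13.1 and 15.9 in TL3d, and 13.8, 9.73 and 10.8 in TL14d. Its TL3h values lay just above the control values (0.55 ± 0.19, adjusted p = 0.0364 by edgeR).

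The RFC3 call was fragile: it was lost without TMM (0.06, adjusted p = 0.818) and without control replicate 1 or 2, any TL3h library or TL3d replicate 1, with adjusted p over all alternatives of 0.0216 to 0.818. RFC1, the largest subunit, was at 105 to 108 CPM in control and at 66.8, 67.7 and 100 CPM in TL3h (-0.43 ± 0.16, adjusted p = 0.0475 by edgeR), and it kept the call in 8 of 20 alternatives. It was lost without any 1 of the control libraries, TL3h replicates 1 and 2, TL3d replicates 1 and 2 and the TL14d libraries (highest adjusted p = 0.112). RFC4 was at 4.89, 4.68 and 3.96 CPM in control, 4.65, 3.15 and 3.99 in TL3h, 9.62, 7.94 and 8.22 in TL3d, and 5.78, 6.28 and 5.76 in TL14d. It overlapped control at 3 hours and was above it at 3 days (0.93 ± 0.20, adjusted p = 0.0171 by edgeR), a call lost without control replicate 1 or 2 or TL3d replicate 1 or 2 (highest adjusted p = 0.0656). RFC4 overlaps EIF4A2 on the other strand and 100% of its counts are fractions, so its level is uncertain.

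The subunits of RPA, which coats single-stranded DNA in replication and repair, also differed from each other. RPA1, the large DNA-binding subunit, was at 144, 132 and 108 CPM in control, 49.7, 42 and 47.9 in TL3h, 157, 148 and 135 in TL3d, and 155, 121 and 122 in TL14d. It fell 2.75-fold at 3 hours with little spread (-1.46 ± 0.15, adjusted p = 8.16e-05 by edgeR) and overlapped control at 3 and 14 days. RPA2 was at 29.3, 25.2 and 19.7 CPM in control, 19.9, 18.6 and 27.5 in TL3h, 31.2, 33.3 and 27.1 in TL3d, and 28.1, 24.9 and 26.4 in TL14d, with no comparison past the threshold. RPA3 was at 11.3, 10 and 8.9 CPM in control, 13.8, 10.4 and 13.2 in TL3h, 17.2, 12.7 and 18.1 in TL3d, and 13.7, 16.5 and 13.7 in TL14d. RPA3 was above control at 3 days (0.67 ± 0.19, adjusted p = 0.0384 by edgeR), a call kept in 8 of 20 alternatives and lost without any 1 of the control libraries, the TL3d libraries, TL3h replicates 1 and 3 or TL14d replicate 3 (highest adjusted p = 0.12).

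All 4 measured polymerase and primase genes fell at 3 hours, by 1.56 to 2.32 on the log2 scale. POLE, the catalytic subunit of the leading-strand polymerase, was at 25.8, 15.4 and 8.55 CPM in control, 3.73, 2.41 and 3.84 in TL3h, 49.7, 39.5 and 32.2 in TL3d, and 19.8, 13.3 and 19.2 in TL14d. It was 4.98-fold lower at 3 hours (-2.32 ± 0.39, adjusted p = 0.00096 by edgeR) and 2.44-fold above control at 3 days (1.29 ± 0.37, adjusted p = 0.0403). The call at 3 days was kept in 11 of 20 alternatives, and lost without control replicate 2 or 3, TL3h replicate 1 or 3, TL3d replicate 1 or 2 or TL14d replicate 3 (highest adjusted p = 0.127). POLE overlaps PXMP2 on the other strand, 83.3% of its counts are fractions, and its level is uncertain.

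PRIM1, the primase subunit that makes RNA primers, was at 10.4, 8.1 and 4.82 CPM in control, 2.08, 1.58 and 1.57 in TL3h, 7.79, 8.04 and 8.08 in TL3d, and 12.4, 5.11 and 6.84 in TL14d. POLA1, the catalytic subunit of the polymerase that extends those primers, was at 33.6, 33.4 and 28.2 CPM in control, 11.8, 9.87 and 10.6 in TL3h, 34.6, 32.9 and 33.9 in TL3d, and 30.9, 23.4 and 25.4 in TL14d. Both were below all other libraries at 3 hours (PRIM1 -2.16 ± 0.37 and POLA1 -1.56 ± 0.14, adjusted p = 0.00118 and 4.77e-05 by edgeR). At 3 days both were within the range of control or close to it, with log2 fold changes of 0.03 ± 0.35 and 0.09 ± 0.14. POLA2, their partner subunit, was at 14.8 to 22.2 CPM in control, 4.21 to 6.65 in TL3h and 29.3 to 33.3 in TL3d (0.74 ± 0.25 at 3 days, adjusted p = 0.065 by edgeR).

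LIG1, the ligase that seals Okazaki fragments, was at 21.6, 16 and 12.6 CPM in control, 6.3, 6.47 and 6.37 in TL3h, 31, 26 and 24.8 in TL3d, and 31.9, 17 and 19.1 in TL14d (-1.39 ± 0.26 at 3 hours, adjusted p = 0.002 by edgeR). FEN1, the nuclease that trims their flaps, was at 21.8, 19 and 12.7 CPM in control, 10.2, 9.92 and 17.3 in TL3h, 35.4, 25.6 and 27.5 in TL3d, and 24.7, 21.8 and 20.6 in TL14d (-0.52 ± 0.26, adjusted p = 0.136). The TL3h values of LIG1 were separate from control, and those of FEN1 overlapped it through TL3h replicate 3. At 3 days every library of both was above control without passing the threshold (0.71 and 0.73, adjusted p = 0.0812 and 0.0773).

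The genes of deoxynucleotide supply rose at 3 days, and RRM2 had the largest fold change of the 41 genes there. RRM2, the regulated subunit of ribonucleotide reductase, was at 30.8, 28.6 and 14.7 CPM in control, 41.1, 37 and 13.5 in TL3h, 224, 127 and 109 in TL3d, and 28, 34.7 and 30.2 in TL14d. The TL3h values fell on both sides of the control values (0.31 ± 0.43, adjusted p = 0.596 by edgeR), and the rise at 3 days was 6.19-fold (2.63 ± 0.45, adjusted p = 0.0111). RRM1, the large subunit, was at 66.1, 63.5 and 39.1 CPM in control, 27.6, 23.5 and 26.6 in TL3h, 153, 121 and 104 in TL3d, and 57.5, 70.8 and 68.1 in TL14d. RRM1 fell at 3 hours (-1.12 ± 0.21, adjusted p = 0.00195) and rose at 3 days (1.17 ± 0.21, adjusted p = 0.0119).

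TYMS, thymidylate synthase (chromosome 9, 61683466 to 61695592), was at 39.6, 24.3 and 11.1 CPM in control, 4.07, 5.77 and 3.88 in TL3h, 64.8, 47.9 and 59.2 in TL3d, and 32.6, 33 and 35.5 in TL14d. It fell 5.47-fold at 3 hours (-2.45 ± 0.39, adjusted p = 0.000701 by edgeR), below all other libraries. Its rise at 3 days (1.20 ± 0.37, adjusted p = 0.0483) was kept in 6 of 20 alternatives. It was lost without any 1 of control replicates 2 and 3, the TL3h libraries, the TL3d libraries and TL14d replicates 2 and 3, with a highest adjusted p of 0.136.

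The G1/S regulators did not pass the threshold at 3 hours in any of 3 genes, and both E-type cyclins, which activate CDK2, rose at 3 days. CCNE1 was at 2.09, 2.68 and 1.96 CPM in control, 1.5, 3.11 and 1.61 in TL3h, 15.7, 11.6 and 12.5 in TL3d, and 2.76, 5.22 and 5.44 in TL14d. CCNE2 was at 2.14, 1.68 and 0.828 CPM in control, 1.11, 1.66 and 1.13 in TL3h, 11.6, 7.18 and 9.45 in TL3d, and 1.45, 2.06 and 2.08 in TL14d. For both, TL3h overlapped control and TL3d lay above all other libraries, 5.92-fold and 6.07-fold over control (SE of the log2 fold change 0.36 and 0.38, adjusted p = 0.00851 and 0.00906 by edgeR). The transcription factor gene E2F1 was at 7.93, 4.33 and 2.51 CPM in control, 3.11, 2.07 and 3.26 in TL3h, 9.59, 7.91 and 9.79 in TL3d, and 9.18, 3.75 and 6.54 in TL14d. E2F1 overlapped control at all times and was higher at 3 days than at 3 hours (1.69 ± 0.44, adjusted p = 0.0131).

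**Figure D5:**
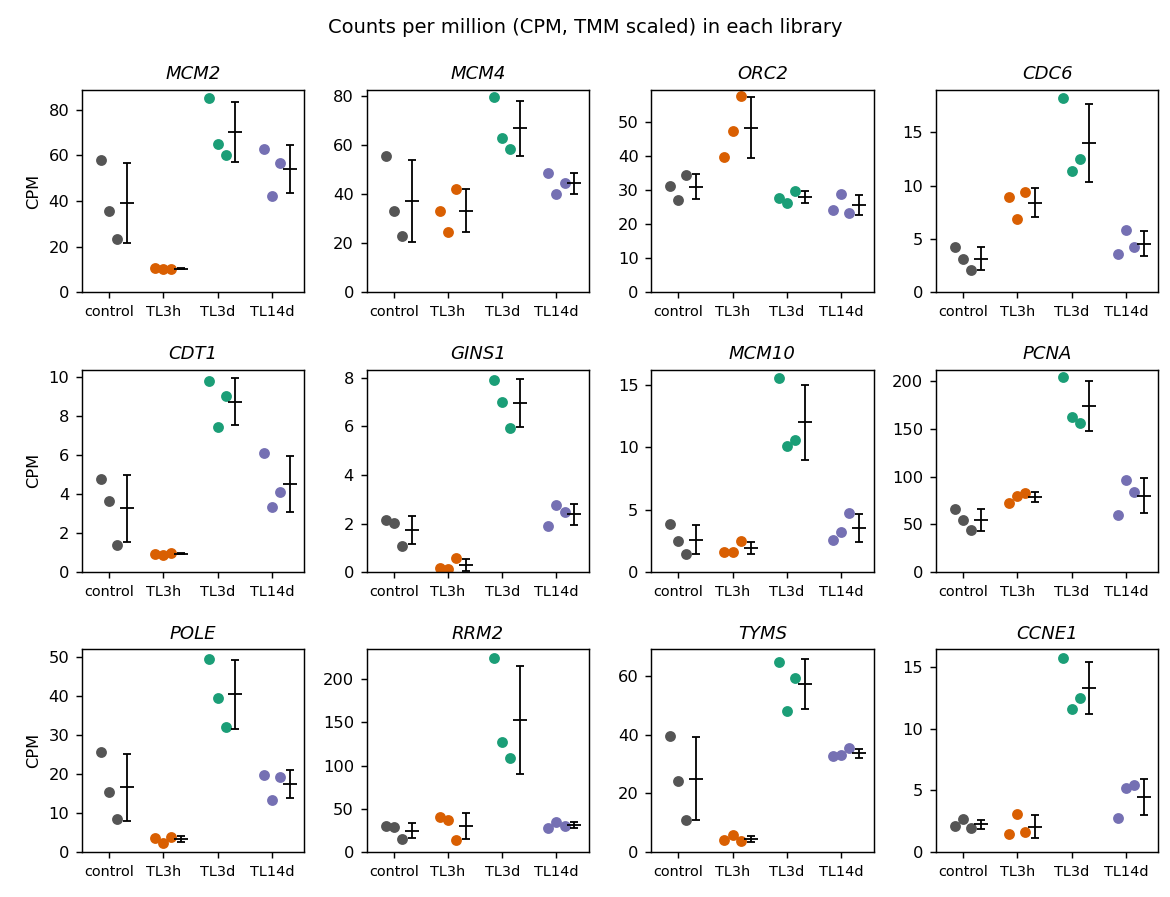
CPM of 12 of the genes, chosen to show each kind of course, in each library, with 1 panel per gene and its own axis from 0, coloured points for libraries in the order of replicates 1 to 3, and the mean ± SD in black. MCM2, CDT1, GINS1, POLE and TYMS dip at 3 hours, ORC2 peaks there, CDC6 is above control at 3 hours and 3 days, and RRM2 and CCNE1 stand apart at 3 days.

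At 14 days no gene of the 41 passed the threshold against control. The highest log2 fold change was that of CCNE1 (1.99-fold, adjusted p = 0.405 by edgeR), followed by GINS2 (0.64 ± 0.39) and GINS4 (0.57 ± 0.34). The lowest were ORC6, ORC2 (-0.28 ± 0.16) and POLA1 (-0.26 ± 0.14). Every TL14d library lay above every control library for RFC2, RFC4, RPA3 and CCNE1 (4 of 41, against 6.03% of all genes). TL14d replicate 1 correlated more closely with the controls (mean 0.958) than with its own group (0.883) over all genes, and it held the highest TL14d value for 23 of the 41 genes.

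The 8 genes that fell between 3 days and 14 days were CDC6 (-1.61), GINS4 (-1.82), MCM10 (-1.78), PCNA (-1.12), RRM1 (-0.95), RRM2 (-2.31), CCNE1 (-1.57) and CCNE2 (-2.33), in log2 fold change, with adjusted p from 0.0248 to 0.0496 by edgeR. Each was called higher than control at 3 days, and for each the TL14d libraries were all below the TL3d libraries, as for 20 of the 41 genes (14.0% of all genes), while 0 of 41 had all TL14d libraries above (13.4%). These calls were near the threshold: 0 of the 8 remained without any 1 of the 3 TL3d libraries, without TL14d replicate 1 or 3, or in a fit of the 6 libraries alone. The count was 4 without TL14d replicate 2, 1 without control replicate 2, and 3 without TL3h replicate 1 or 3.

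Of the transcripts listed for these genes, 61 of 67 passed the filter, and in 11 genes at least 2 were tested. At 3 hours 23 transcripts were lower (14.1% of all transcripts tested) and 2 were higher (14.1%), and from 3 hours to 3 days 32 were higher (11%) and 1 lower (10.4%). At 3 days 7 were higher than control (3.24%) and 0 lower (1.88%), and from 3 days to 14 days 0 were higher (0.0153%) and 0 lower (0.107%). In 0 genes did transcripts pass in both directions. The higher ones at 3 hours belonged to CDC6 (2.06 ± 0.51, adjusted p = 0.0127 by edgeR) and ORC2 (0.47 ± 0.16, adjusted p = 0.0498). MCM7 had 1 transcript lower at 3 hours, with means of 14.1 CPM against 46.4 in control (-1.72 ± 0.32, adjusted p = 0.00295), and another with means of 7.06 against 8.54 CPM that did not pass (-0.28 ± 0.27). Shared exons make the split of reads between transcripts of a gene an estimate.

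Other genes around replication were taken from lists of related roles, and their counts stand against 23.2% of all genes higher and 22.2% lower at 3 hours, and 10.6% higher and 7.0% lower at 3 days. Of 33 other replication factors, 14 were lower (42.4%) and 7 higher (21.2%) at 3 hours, and 11 were higher (33.3%) and 0 lower at 3 days (median log2 fold changes -0.54 and 0.46). At 3 hours the lowest were MTBP, an origin-firing factor (-2.80 ± 0.52), and ASF1B, a histone chaperone (-2.54 ± 0.36), and the highest were TOP1, a topoisomerase (1.48 ± 0.19, from 152, 150 and 160 CPM in control to 378, 457 and 449 CPM), and POLE3, a small subunit of the POLE holoenzyme (1.18 ± 0.19). MTBP was at 2.28, 2.43 and 8.75 CPM in control and 0.5, 0.622 and 0.805 in TL3h, and without control replicate 3, which stood apart, its log2 fold change was -1.92 (adjusted p = 0.00104 by edgeR). At 3 days TICRR, another firing factor, had the highest value of the list, 2.64 ± 0.49, with an adjusted p of 0.0132 that became 0.0552 without control replicate 2. Of 12 other genes of nucleotide supply, 4 were higher and 4 lower at 3 hours (33.3% each) and 6 higher (50%) and 0 lower at 3 days (medians 0.05 and 1.04), with CTPS1, which makes CTP, at 3.13 ± 0.56 and 2.47 ± 0.55. The call of CTPS1 at 3 days was lost without control replicate 1 or 2 or TL3d replicate 1 or 2 (highest adjusted p = 0.0713 by edgeR). TK1, the salvage enzyme thymidine kinase, fell by 1.81 ± 0.38 at 3 hours.

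Among 25 genes of G1/S control, 6 were higher (24%) and 7 lower (28%) at 3 hours, shares near those of all genes, and 7 were higher (28%) and 2 lower (8%) at 3 days (medians -0.18 and 0.38). MYC was at 20.7, 14.6 and 64.6 CPM in control and 242, 214 and 203 CPM in TL3h (2.72 ± 0.48, adjusted p = 0.00129 by edgeR, and 3.58 without control replicate 3), and E2F2 rose too (2.45 ± 0.35), while CCNA2, an S-phase cyclin, fell (-2.42 ± 0.30). Of 5 CDK inhibitors, 1 was higher (20%) and 2 lower (40%) at 3 hours and 1 higher (20%) at 3 days (medians -0.52 and -0.06). CDKN1A, the p53 target p21, was at 135, 104 and 52.6 CPM in control, 1270, 1080 and 839 in TL3h, 1330, 1160 and 885 in TL3d, and 142, 969 and 586 in TL14d. CDKN1A was separate from control at 3 hours and at 3 days (3.45 ± 0.62 and 3.53 ± 0.62, adjusted p = 0.00145 and 0.0114), when 16 of the 41 replication genes were also higher. CDKN2C fell at 3 hours (-2.77 ± 0.44). Of 10 checkpoint genes, 2 were higher (20%) and 3 lower (30%) at 3 hours, again near the shares of all genes, and 3 were higher (30%) at 3 days (medians -0.04 and 0.25), among them CHEK1 (1.26 ± 0.21) and CHEK2 (1.74 ± 0.30).

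The 16 mitotic genes all fell at 3 hours, by 0.85 to 2.99 on the log2 scale (median -2.29), and 15 of 16 rose at 3 days (93.8%, against 10.6% of all genes, median 1.46). BUB1B, a spindle checkpoint kinase, was at 13.8, 15.5 and 7.93 CPM in control, 1.58, 1.54 and 2.09 in TL3h, and 29.5, 26.4 and 25.5 in TL3d, and its call at 3 days was lost without control replicate 1 or TL3d replicate 1 or 2 (highest adjusted p = 0.0658 by edgeR). CDK1, the mitotic kinase, was at 10.8, 15.2 and 7.6 CPM in control, 3.27, 1.45 and 4.06 in TL3h, and 57.1, 41.8 and 46.8 in TL3d. The exception at 3 days was MKI67, at 0.73 ± 0.39 (adjusted p = 0.204 by edgeR). Whether the mitotic and the replication genes differed from each other was not tested.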

How the data were processed

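Paired-end reads of 150 bp from stranded mRNA libraries were mapped by the authors with STAR to OryCun2.0, a rabbit genome build (version 2.6.0c of STAR per the submitters' processing notes in the labels). The deposited gene and transcript tables hold an estimated count, of which 23.4% of gene values are fractions, and an FPKM value for each library. How reads with several placements were shared, and whether counting used strand, is not given in the sources used here. The estimated counts per library sum to 27111348 to 38591425, and a count of 3, the floor used here, is 0.0712 to 0.124 CPM, which covers counting error only.

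Estimated counts were rounded and filtered with filterByExpr (minimum count 10, minimum total 15), which left 14835 genes, scaled by TMM and tested with edgeR 4.0.16 (quasi-likelihood F test, all 12 libraries in 1 fit, 5 contrasts) in R 4.3.3. P-values were adjusted by Benjamini-Hochberg over all genes, with a threshold of 0.05. Transcripts were tested in the same way. Alternatives were DESeq2 1.42.0 size factors and test, no TMM, limma 3.58.1 on log2 CPM (prior count 2) and on log2 (FPKM + 0.1), no filter, 6 libraries only, a replicate block, and leaving out each library. The procedure was tested on simulated data for 3 hours against control, where most genes changed 2-fold were not called.

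The 42 genes and the related lists were chosen with earlier results of these data known. Genes are given with their value in each library if they had one of the 2 largest or the smallest absolute fold change of their role at 3 hours, or one of the 3 highest or lowest fold changes of a comparison. PCNA is given in addition and was chosen after its values were seen. Of each related list, the 2 highest and 2 lowest fold changes at 3 hours and 3 days could be named. The other genes are given by range or fold change.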

Additional observations from a re-analysis of the deposited data

Results flagged for a closer look

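For 25 of the 32 genes chosen by the naming rule, the effects at 3 days and at 3 hours differed by a direct test of TL3d against TL3h (edgeR's quasi-likelihood test, adjusted p from 3.86e-05 to 0.0254). Over all genes tested, 18.4% were higher and 19.0% lower. The rule took some of the 32 genes by their fold changes in this same comparison, so the count is not a test of the set. The log2 differences were 2.75 for MCM2, 1.01 for MCM4 and 2.35 for MCM5 in the helicase. Among licensing and origin factors they were -0.79 for ORC2, 1.35 for ORC3 and 3.19 for CDT1. In the CMG group they were 4.50 for GINS1, 3.21 for GINS2, 4.06 for GINS4 and 2.65 for MCM10. For the clamp loader and RPA they were 1.87 for RFC2, 1.13 for RFC4, 1.52 for RFC5 and 1.66 for RPA1. Polymerase and maturation genes were at 1.65 (POLA1), 2.19 (PRIM1), 3.60 (POLE), 1.24 (FEN1) and 2.09 (LIG1). Nucleotide supply and G1/S genes were at 2.29 (RRM1), 2.33 (RRM2), 3.65 (TYMS), 2.68 (CCNE1), 2.85 (CCNE2) and 1.69 (E2F1). Among these 25, ORC2 alone had a negative difference, and without TMM that difference was -0.31 (adjusted p = 0.13). PCNA, which the rule did not choose, differed too (1.15, adjusted p = 0.00185).

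By the same test, 14 days and 3 days differed for 7 of the 32 genes, some of which were again chosen by this comparison. Over all genes tested, 1.59% were lower and 0.647% higher. The log2 differences were -1.61 for CDC6, -1.82 for GINS4, -1.78 for MCM10, -0.95 for RRM1, -2.31 for RRM2, -1.57 for CCNE1 and -2.33 for CCNE2, and for PCNA it was -1.12 (adjusted p = 0.0314). All 7 were lost without any 1 of the TL3d libraries, when adjusted p ranged from 0.0521 to 0.174.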

How the results depend on the processing

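The median fold change of the 41 genes kept its sign in every alternative in all 5 comparisons. Without TMM (library size only), the counts were 1 higher at 3 hours instead of 3, 0 lower at 3 days against 3 hours instead of 1 and 5 lower at 14 days against 3 days instead of 8, and the medians were -1.69 at 3 hours and 2.45 at 3 days against 3 hours. Of all genes called at 3 days against 3 hours, 80.5% were then higher instead of 49.2%. With limma on log2 FPKM the same counts were 1 and 0 and the medians -1.55 and 2.40. ORC4 at 3 hours turned from 0.04 to -0.46 without TMM (adjusted p = 0.0319). These 2 alternatives carry no correction for the composition of the TL3h libraries. The genes lower at 14 days against 3 days were 13 by DESeq2, 5 without the filter, 0 with 6 libraries and 4 with the replicate block; the cause was not tested.

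Leaving out 1 library at a time gave 21 to 25 lower and 1 to 4 higher at 3 hours, 7 to 19 higher and 0 lower at 3 days, 31 to 35 higher and 1 lower at 3 days against 3 hours, and 0 to 9 lower at 14 days against 3 days. The medians ranged from -1.43 to -0.95 at 3 hours, 0.56 to 1.09 at 3 days and 0.06 to 0.54 at 14 days against control, from 1.90 to 2.04 at 3 days against 3 hours, and from -0.66 to -0.32 at 14 days against 3 days. The medians of 1.09 and 0.54 were those without control replicate 1, and -1.43 was that without control replicate 3. At 14 days against control, 0 of the 41 were called in each, although over all genes 531 were higher and 185 lower of 15114 without TL14d replicate 1, against 0 with all libraries.

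Whether equal replicate numbers mark the same animal could not be determined. Deviations of equal numbers correlated at -0.21 to 0.53, over 0.1 in 8 of 18 pairs, and unequal numbers were not compared. With the replicate block, 23 were lower at 3 hours and 20 higher at 3 days. GINS1 and GINS3 at 3 hours lie near the floor of 3 counts, so their fold changes there rest on few reads.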
